A study of Mus musculus with 41 samples.

Results

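Granule cell progenitor genes are represented here by *Atoh1*, *Barhl1*, *Insm1*, *Sox11*, *Mycn*, *Rcor2*, *Sfrp1*, *Mex3a*, *Pbk* and *Hsd11b2*, 10 of the 22438 genes with ribosome footprint counts. They were chosen by name because their footprint levels were higher in *Hbs1l* conditional knockout (cKO) cerebella than in control cerebella of the same 6 libraries. The cerebellum values of the members are therefore a description of that choice, with no p-value, and calls counted there are no support for it, whereas the embryo and fibroblast libraries did not enter the choice and were tested. HBS1L and PELO act together to rescue stalled ribosomes, and the study asked how translation changes in tissues and cells that lack either factor, with UPF2, a factor of nonsense-mediated decay, as a further target in cells.

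Ribosome-protected mRNA fragments were sequenced from 1 cerebellum per replicate of C57BL/6J mice at postnatal day 14, from 3 cKO mice, Tg(Atoh1-Cre) with Hbs1l fl/-, and 3 control mice, Tg(Atoh1-Cre) with Hbs1l +/+. Both genotypes thus carried the Cre transgene, and both were homozygous for the B6J allele of *n-Tr20* (n-Tr20 B6J/B6J), which impairs the processing of a brain arginine tRNA, and cells outside the Cre lineage of the cKO mice carried a null *Hbs1l* allele beside an intact floxed one. The Cre is driven by *Atoh1* sequences and acts in the granule cell precursors of the cerebellum, more in anterior than in posterior lobes. For reference, footprints were sequenced from pools of 5 C57BL/6NJ embryos at embryonic day 8.5 (3 Hbs1l-/- and 3 wild-type pools), and footprints and RNA from C57BL/6 mouse embryonic fibroblasts (MEFs) with a tamoxifen-inducible CAG-Cre ER, labelled Hbs1l-/-, Pelo-/-, Upf2-/- or control. Before recombination the mutant cells were Hbs1l fl/-, Pelo fl/fl or Upf2 fl/fl. All MEFs, controls included, carried the CAG-Cre ER, were homozygous for the B6J allele of *n-Tr20* and were treated with tamoxifen. All MEF groups had 3 replicates except Pelo-/- RNA, which had 2. Mice of either sex were used.

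Granule cells are the most numerous neurons of the brain. Their progenitors leave the rhombic lip, cover the cerebellar surface as the external granule layer and divide there after birth in response to Sonic hedgehog (SHH) released by Purkinje cells. Daughter cells then leave the cell cycle, extend neurites and migrate inwards past the Purkinje cells to the internal granule layer, and in mice the external layer disappears within weeks of birth. ATOH1 specifies this lineage, and the other genes described here encode transcription factors, a corepressor, a secreted WNT modulator, an RNA-binding protein, a mitotic kinase and a steroid-inactivating enzyme found in these progenitors.

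The members are a named set and not a measured cell population. *Atoh1* and *Barhl1* had no footprint in any of the 6 embryo libraries, where 0 counts of 24114605 allow up to 0.124 counts-per-million (CPM). *Sfrp1*, *Sox11*, *Mex3a*, *Rcor2*, *Hsd11b2*, *Pbk* and *Mycn* were above the low-count filter in embryos and MEFs as well, samples with no cerebellum. All members are expressed by more than granule cell progenitors in the mouse. The cerebellum was measured by footprints only. Changes there in the number of cells of a type, in RNA per cell and in footprints per RNA cannot be told apart.

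Promoters of the members were read to show the sequence at their start sites, since ATOH1 binds E-boxes and MYC proteins bind the E-box CACGTG. RefSeq promoters of 300 bases (250 before and 50 after the start, GRCm38.p6) were available for 6 of the 10 members, namely *Atoh1*, *Barhl1*, *Mex3a*, *Mycn*, *Rcor2* and *Sox11*. The E-box CAGCTG, a palindrome that reads alike on both strands, was found in the promoters of *Sox11* and *Barhl1* and in 16.3% of all 32851 promoters of that length. CACGTG, likewise a palindrome, was found in *Rcor2* and in 7.15% of all promoters, and the GLI motif GACCACCCA, searched on both strands, in 0 of the 6 members and in 0.253% of all promoters. No window held more than 1 match. The *Sox11* (chr12:27342669-27342968, minus strand), *Barhl1* (chr2:28916619-28916918 and chr2:28912446-28912745, minus strand), *Rcor2* (chr19:7267144-7267443, plus strand) and *Atoh1* (chr6:64728875-64729174, plus strand) windows are printed 5′ to 3′ on the strand of the gene, with the E-box in capitals; *Atoh1*, the gene after which the lineage is traced, holds none of the 3 motifs here.
Sox11: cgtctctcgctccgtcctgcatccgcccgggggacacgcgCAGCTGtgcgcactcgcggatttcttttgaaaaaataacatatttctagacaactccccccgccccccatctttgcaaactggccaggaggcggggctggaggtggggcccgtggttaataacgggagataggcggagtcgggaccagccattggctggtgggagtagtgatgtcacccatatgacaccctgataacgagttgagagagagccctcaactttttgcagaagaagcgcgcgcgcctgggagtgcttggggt
Barhl1, upstream start: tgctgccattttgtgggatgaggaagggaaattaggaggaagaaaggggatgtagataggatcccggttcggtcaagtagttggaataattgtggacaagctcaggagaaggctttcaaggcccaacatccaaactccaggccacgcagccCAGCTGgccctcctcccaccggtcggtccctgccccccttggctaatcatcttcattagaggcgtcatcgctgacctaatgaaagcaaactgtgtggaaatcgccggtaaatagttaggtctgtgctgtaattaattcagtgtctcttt
Barhl1, downstream start: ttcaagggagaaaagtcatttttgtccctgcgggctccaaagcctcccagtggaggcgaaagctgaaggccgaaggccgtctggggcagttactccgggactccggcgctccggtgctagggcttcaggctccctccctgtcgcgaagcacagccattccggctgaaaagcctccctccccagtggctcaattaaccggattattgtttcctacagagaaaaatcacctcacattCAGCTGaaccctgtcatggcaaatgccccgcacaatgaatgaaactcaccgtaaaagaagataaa
Rcor2: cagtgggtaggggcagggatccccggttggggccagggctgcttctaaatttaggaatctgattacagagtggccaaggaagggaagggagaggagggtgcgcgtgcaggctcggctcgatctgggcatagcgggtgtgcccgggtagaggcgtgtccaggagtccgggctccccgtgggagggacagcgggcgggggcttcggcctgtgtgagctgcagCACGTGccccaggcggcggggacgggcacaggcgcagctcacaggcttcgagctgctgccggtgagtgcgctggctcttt
Atoh1: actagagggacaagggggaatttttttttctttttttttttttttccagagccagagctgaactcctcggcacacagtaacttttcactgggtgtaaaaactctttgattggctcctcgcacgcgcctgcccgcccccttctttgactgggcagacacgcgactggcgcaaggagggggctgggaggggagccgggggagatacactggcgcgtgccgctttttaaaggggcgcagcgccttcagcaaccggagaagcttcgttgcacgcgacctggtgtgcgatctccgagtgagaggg
The E-box lies 210 bases before the annotated start of *Sox11*, 99 and 15 bases before the starts of *Barhl1*, and 30 bases before that of *Rcor2*. These matches describe the letters of the windows only, and no binding was measured.

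Footprint totals on annotated genes were 10919139 to 22591768 counts in the cerebellum libraries and 2634480 to 7298812 in the embryo libraries. *Hbs1l* itself, the label check, was at 14.9, 15.7 and 12.8 CPM in cKO replicates 1, 2 and 3 and at 37.8, 40.0 and 44.7 CPM in the controls. It was lower in all cKO cerebella, at 0.353 of the control level in the fit, and whole tissue includes cells outside the Cre lineage. *Gabra6*, a granule neuron receptor subunit, and *Pcp2*, a Purkinje cell gene, were at 343.2 to 1166 and 940.3 to 1362 CPM. Control 3 stood apart from the other control libraries: the mean squared difference per gene, in units of counting error, was 71.8 to 73.6 against it and 12.05 between controls 1 and 2, whereas the cKO libraries differed by 25.2 to 32.4. *Ddx3y*, a Y-linked gene, was at 70.9 and 97.7 CPM in replicate 1 of each genotype and at most 1.73 CPM in the other cerebella, so the sexes were balanced between genotypes. Of 14430 genes, the quasi-likelihood fit of edgeR called 9 (0.0624%) at an adjusted p of 0.05 or less, 8 of them higher in cKO cerebella (0.0554%).

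All 10 members had higher footprint levels in every cKO library than in every control library, a pattern that 9.38% of the tested genes showed in this direction and 8.91% in the other. Their fold changes ran from 1.91 (*Rcor2*) to 3.00 (*Hsd11b2*), with a median log2 fold change of 1.37 against 0.0002 over all genes tested. Of the genes that the test called higher, 6 were members (*Sfrp1*, *Sox11*, *Insm1*, *Mex3a*, *Rcor2* and *Hsd11b2*). As these libraries chose the members, nothing is read from that count. The count moved with the setting, to 0 without cKO 1, cKO 3, control 1 or control 2, to 8 without cKO 2 and to 10 without control 3 or in DESeq2, and no member's fold change turned its sign in any of them.

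**Figure D1:**
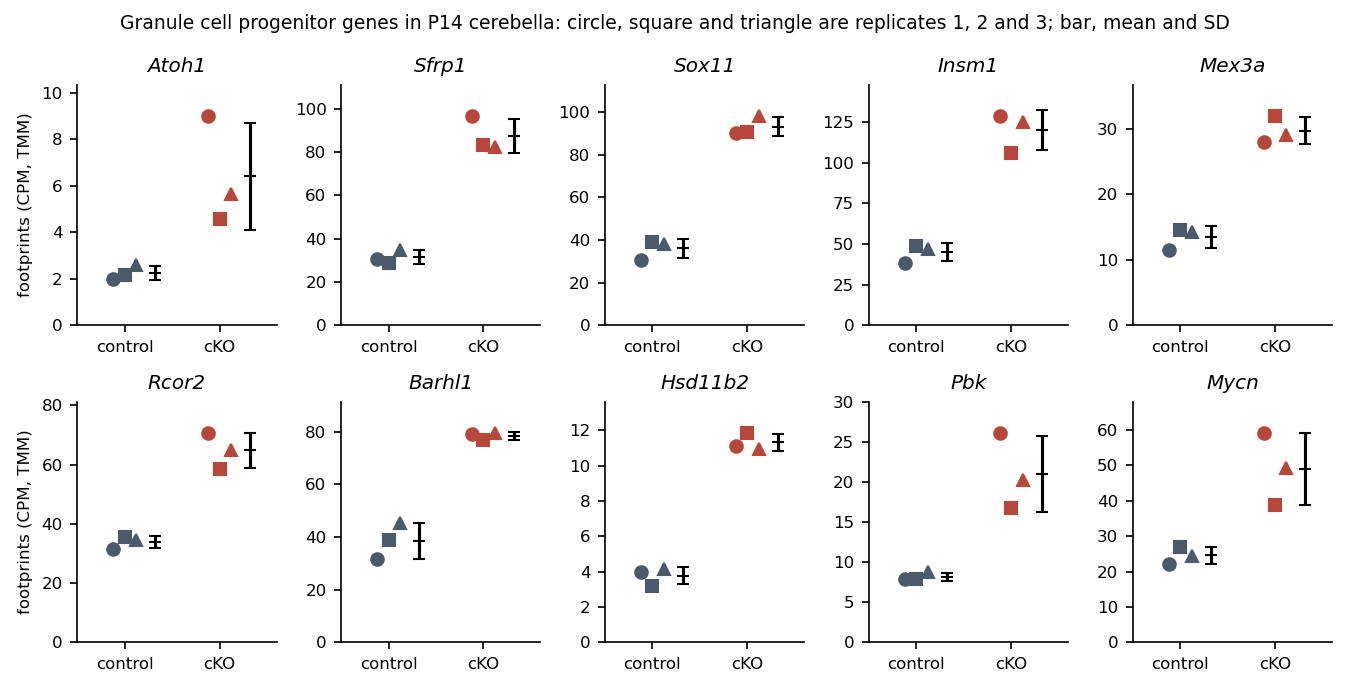
Footprint level (CPM, linear axes from 0) of each of the 10 members in the 3 control (blue-grey) and 3 cKO (red) cerebellum libraries; circles, squares and triangles are replicates 1, 2 and 3, and the bars beside them give the mean and SD of each group. Every member's lowest cKO library lay above its highest control library, by 1.43 times for Mycn at the least and 2.66 times for Hsd11b2 at the most.

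Among the transcription factors, *Atoh1* (ENSMUSG00000073043.5, chr6:64729125-64731245, plus strand, a gene of 1 exon), the bHLH factor that founds the lineage, was the member with the fewest footprints. Its level was 9.01, 4.56 and 5.64 CPM in cKO replicates 1, 2 and 3 and 2.00, 2.17 and 2.59 CPM in controls 1, 2 and 3. The lowest cKO library was above the highest control, and cKO 1 stood well above the other cKO libraries. The log2 fold change was 1.51 ± 0.29 (SE), the largest error among the members, and the control libraries held 24 to 57 counts each and the cKO libraries 50 to 195. All 6 mice carried the Atoh1-Cre transgene, and whether its sequence adds to the counts of *Atoh1* was not tested.

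*Barhl1* (ENSMUSG00000026805.14, chr2:28907679-28916668, minus strand, 3 exons), a homeobox factor that acts after *Atoh1* in granule cells, was at 79.1, 76.8 and 79.4 CPM in cKO libraries and at 31.6, 38.7 and 45.2 CPM in controls. The cKO libraries lay within 1.035 times of each other while the controls were more spread, and the groups did not overlap. The log2 fold change was 1.02 ± 0.14 (SE). Its paralog *Barhl2* was at 54.0, 81.9 and 68.9 CPM in cKO libraries and 55.8, 59.0 and 92.5 CPM in controls, a log2 fold change of -0.02 ± 0.22 (SE) with overlapping groups.

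*Insm1* (ENSMUSG00000068154.5, chr2:146221921-146225020, plus strand, 1 exon) encodes a zinc finger repressor that is on in dividing neuronal progenitors as they turn to differentiation. It was the member with the highest CPM in cKO cerebella, at 129, 105.9 and 125.5 CPM, and controls were at 38.6, 49.1 and 47.0 CPM. Every cKO library was more than 2 times the highest control, and the log2 fold change was 1.42 ± 0.14 (SE). *Insm2*, its paralog, also had a higher fitted value (2.18), at a mean of about 1 CPM in cKO libraries.

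*Sox11* (ENSMUSG00000063632.6, chr12:27334264-27342574, minus strand, 1 exon), an SRY-related factor of immature neurons, was at 90.5, 91.0 and 98.3 CPM in cKO libraries and 30.8, 38.9 and 38.3 CPM in controls. Neither group spread widely, and the log2 fold change was 1.37 ± 0.13 (SE). Its relative *Sox4* was at 91.0, 84.1 and 98.7 CPM against 51.3, 58.7 and 53.2 CPM, a log2 fold change of 0.75 ± 0.11 (SE) with no overlap of the groups and an adjusted p of 0.0766 by edgeR.

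*Mycn* (ENSMUSG00000037169.15, chr12:12936093-12941914, minus strand, 3 exons), the MYC-family factor that SHH induces in granule cell progenitors, was at 59.0, 38.7 and 49.2 CPM in cKO libraries and 22.2, 27.0 and 24.5 CPM in controls. Replicate 1 was the highest and replicate 2 the lowest of the cKO libraries, and the gap to the controls, 1.43 times, was the narrowest of any member. The log2 fold change was 1.00 ± 0.17 (SE).

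*Rcor2* (ENSMUSG00000024968.14, chr19:7267325-7275225, plus strand, 12 exons) encodes a corepressor of the CoREST family, which joins LSD1 and histone deacetylases. Its footprints were at 70.6, 58.6 and 65.0 CPM in cKO libraries and 31.5, 35.5 and 34.6 CPM in controls, with no overlap. The log2 fold change of 0.93 ± 0.12 (SE) was the smallest among the members. The other CoREST genes, *Rcor1* and *Rcor3*, each had a log2 fold change of 0.11 with an adjusted p above 0.05.

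*Sfrp1* (ENSMUSG00000031548.7, chr8:23411502-23449632, plus strand, 3 exons), a secreted frizzled-related protein that binds WNT ligands, was at 96.8, 83.5 and 82.5 CPM in cKO libraries and 30.8, 29.0 and 35.0 CPM in controls. The groups were far apart compared with the spread within each, and the log2 fold change was 1.47 ± 0.12 (SE). *Mex3a* (ENSMUSG00000074480.4, chr3:88532395-88541396, plus strand, 2 exons), an RNA-binding protein of progenitor cells, was at 28.0, 31.99 and 29.1 CPM against 11.5, 14.5 and 14.3 CPM. Its log2 fold change was 1.14 ± 0.14 (SE), again with no overlap.

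*Pbk* (ENSMUSG00000022033.9, chr14:65805837-65817822, plus strand, 8 exons), a kinase made in dividing cells, was at 26.2, 16.8 and 20.3 CPM in cKO libraries and 7.99, 7.88 and 8.77 CPM in controls. The controls were nearly alike and the cKO libraries were not, with replicate 1 the highest. The log2 fold change was 1.36 ± 0.19 (SE). *Hsd11b2* (ENSMUSG00000031891.6, chr8:105518755-105523988, plus strand, 5 exons), the enzyme that inactivates glucocorticoids, was at 11.1, 11.9 and 10.98 CPM against 4.00, 3.21 and 4.13 CPM. It had the largest fold change of the members, 3.00, with a log2 fold change of 1.58 ± 0.18 (SE), and its cKO libraries hardly differed.

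Within the cKO group the members did not all follow the same order of libraries. Replicate 1 was the highest for 6 members (*Atoh1*, *Sfrp1*, *Insm1*, *Rcor2*, *Pbk* and *Mycn*) and replicate 2 the lowest for 6 (*Atoh1*, *Insm1*, *Rcor2*, *Barhl1*, *Pbk* and *Mycn*). The highest cKO library exceeded the lowest by 1.98 times for *Atoh1*, 1.56 times for *Pbk* and 1.52 times for *Mycn*, and by no more than 1.22 times for the others. Control 1 was the lowest control for 7 members. Summed over the members, the level was 599.4, 519.6 and 566.0 CPM in cKO replicates 1, 2 and 3 and 211.1, 246.0 and 254.4 CPM in the controls. Control 3, which stood apart over all genes, was thus not apart for the members' sum.

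Across the 6 libraries, with each genotype's mean taken out, *Rcor2* followed the mean of the other members most closely (Pearson r = 0.90), followed by *Atoh1* (0.83), *Insm1* (0.82), *Pbk* (0.78) and *Mycn* (0.77). *Mex3a* (0.08) and *Hsd11b2* (-0.25) did not follow it. These are descriptions over 6 libraries that were scaled together and differ in depth. The other genes nearest the members' mean over the 6 libraries, among those with at least 5 CPM on average, with the genotype difference kept in, included *Fam89b* (r = 0.996), *Tle1* (0.995), *Zbtb12*, *Nol4*, *Chrna3* (0.994), *Spc24*, *Ephb3*, *Mdga1* and *Nol4l* (0.990). These r include the difference that chose the members, and with each genotype's mean taken out they were 0.86 for *Fam89b* and 0.84 for *Tle1*. Their log2 fold changes ran from 0.27 (*Nol4*) to 1.26 (*Chrna3*), so that some had smaller differences than any member. *Chrna3*, a nicotinic acetylcholine receptor subunit, was at 40.4, 35.4 and 40.6 CPM in cKO libraries and 15.4, 15.3 and 17.8 CPM in controls. *Tle1*, a Groucho-family corepressor, was at 31.4, 30.2 and 30.8 CPM against 20.6, 21.8 and 21.4 CPM.

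Levels of different genes were compared as RPKM, the count scaled to the coding length in kilobases and to the library total with no TMM factor. In control cerebella *Barhl1* was at 37.8 ± 7.38 RPKM (SD, n = 3), *Sfrp1* at 32.2 ± 3.65, *Sox11* at 29.2 ± 4.11 and *Insm1* at 27.6 ± 3.77, and the ranges of neighbours in this order overlapped. *Rcor2* followed at 20.7 ± 1.57 and *Mycn* at 17.0 ± 1.82, then *Mex3a* (8.27 ± 1.16) and *Pbk* (7.96 ± 0.610), which overlapped, and last *Hsd11b2* (3.13 ± 0.431) and *Atoh1* (2.06 ± 0.318). In cKO cerebella *Sfrp1* came first at 95.4, before *Barhl1* (82.0), *Sox11* (80.7) and *Insm1* (78.9), and *Atoh1* was again last at 6.25.

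The order differed in the other samples. In wild-type embryos *Mycn* was highest at 160.2 RPKM, then *Sox11* (115.0), *Sfrp1* (108.5), *Hsd11b2* (96.1), *Rcor2* (74.1), *Pbk* (59.3) and *Mex3a* (41.7), whereas *Insm1* was at 0.303. Of the 7 members tested in embryos, *Hsd11b2* had the highest ratio to its control cerebellum level, at 30.7 times, and *Sfrp1* the lowest, at 3.37 times. *Insm1* was at 0.011 of its control cerebellum level there. In control MEFs of the Hbs1l pool *Sfrp1* (88.4) and *Sox11* (61.9) led, *Pbk* was at 21.8 and *Mex3a* at 15.6, and *Mycn* (3.62), *Rcor2* (2.37) and *Hsd11b2* (1.21) were low. *Atoh1*, *Barhl1* and *Insm1* had at most 5 counts in any MEF footprint library. Source, strain, library batch and the size of fragments kept (26 to 34 nucleotides in cerebella, 15 to 34 in embryos and MEFs) changed together and cannot be told apart, so levels were not tested between sources.

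**Figure D2:**
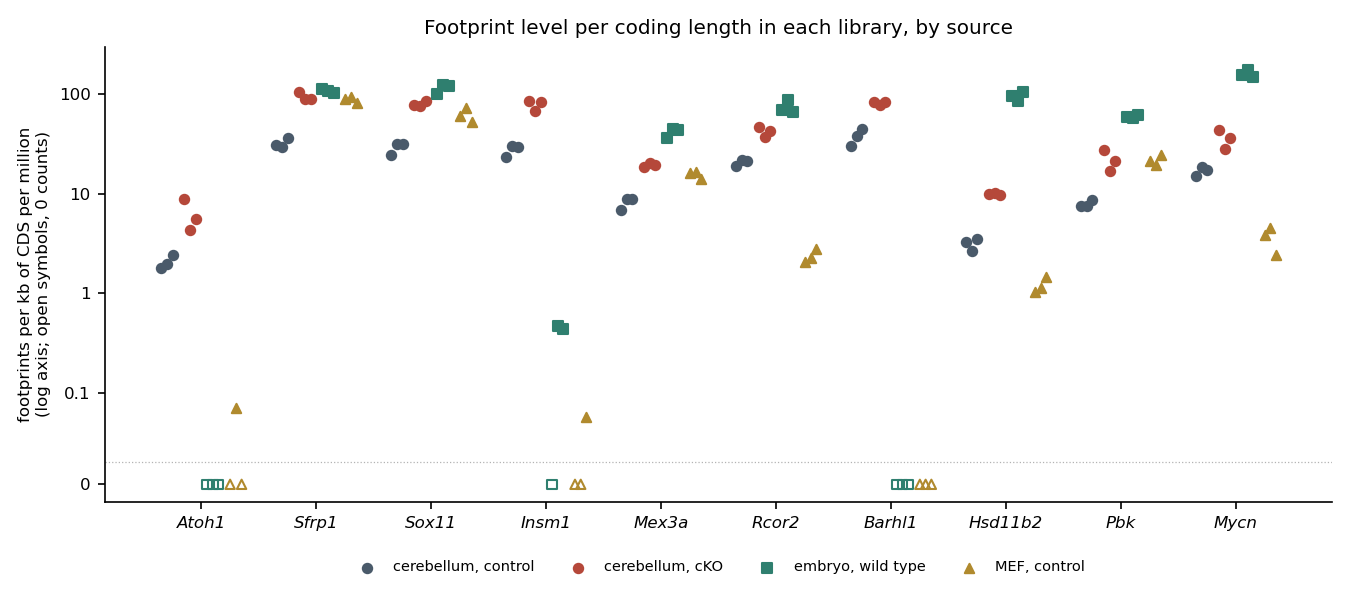
Footprint RPKM (footprints scaled to coding length and library total, log axis) for each member in every library of the control and cKO cerebella (circles), wild-type embryos (squares) and control MEFs of the Hbs1l pool (triangles), with open symbols for libraries with 0 counts. Atoh1 and Barhl1 had no footprint in these embryo libraries, and Mycn, highest in embryos at 160.2, was the sixth in control cerebella at 17.0.

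Genes around the members in the same pathways were taken from lists for this tissue, drawn up with earlier results of these libraries known, and described in the cerebellum libraries by their counts and medians. Some genes are in more than 1 list, so the lists are not separate. Among them are *Aurka* (cell cycle and MYC), *Melk* (cell cycle and paralogs), and *Neurod1* and *Etv1* (granule lineage factors and mature granule neurons). With all 6 libraries, edgeR called 0 genes in each list other than the members (with histone genes kept, 2 cell cycle genes and 1 gene each of the newborn granule cell, MYC and paralog lists, all higher, and with no filter on low counts 1 newborn granule cell gene, higher). DESeq2 calls are given beside the counts at an unadjusted p under 0.05 in edgeR, which 13.4% of all genes tested had, and DESeq2 called 1.88% of all genes higher and 1.3% lower. Without control 3, edgeR called 4 granule lineage factors, 3 newborn granule cell genes, 3 WNT genes and 3 paralogs higher, 2 mature granule neuron genes lower and 1 gene each of the SHH and MYC lists higher. That fit called 245 of all 14597 genes higher and 315 lower. Without cKO 2 edgeR called 1 SHH gene, 2 MYC network genes and 2 paralogs higher (79 of all 14614 genes higher and 9 lower), and leaving out any other library gave 0. Cell cycle genes showed the largest difference: 34 of 36 were higher in cKO cerebella, 31 of them at an unadjusted p under 0.05 against 1 lower, with a median log2 fold change of 1.16, and DESeq2 called 28 higher. *Top2a*, the topoisomerase of dividing cells, was at 119.1, 50.3 and 60.7 CPM in cKO libraries and 33.4, 32.2 and 20.6 CPM in controls (adjusted p = 0.129, edgeR). *Mki67* was at 71.5, 36.4 and 32.9 CPM against 25.6, 22.7 and 13.5 CPM, and *Rrm1*, a ribonucleotide reductase subunit, overlapped between groups at 109.3, 64.9 and 71.0 against 66.7, 64.5 and 46.9 CPM. Replicate 1 was the highest cKO library for 32 of the 36 and replicate 2 the lowest for 30, as they were for *Atoh1*, *Insm1*, *Rcor2*, *Pbk* and *Mycn* among the members. The summed level of the list was 1174, 650.9 and 813.1 CPM in cKO replicates 1, 2 and 3 and 489.9, 475.1 and 411.3 CPM in the controls. Without cKO 1, the median of the cell cycle list was 0.92 and that of the members 1.18. EdgeR called 13 cell cycle genes higher without cKO 2 (median 1.30) and 11 without control 3 (1.13).

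SHH pathway genes had a median of 0.15, with 13 of 18 higher, 4 at an unadjusted p under 0.05 in that direction and 1 in the other, and DESeq2 called 2 higher. *Ccnd2*, the cyclin that SHH raises in granule cell progenitors, was at 154.5, 91.2 and 124.1 CPM in cKO libraries and 50.9, 45.0 and 63.6 CPM in controls, a log2 fold change of 1.21 ± 0.21 (SE, adjusted p = 0.102, edgeR). The receptor *Ptch1* (0.12) and the effector *Gli1* (-0.08), both SHH targets, had small values with overlapping groups, and *Boc*, a co-receptor, was at 0.02. Every cKO library was above every control for 4 of the 18 genes. The median of the list was 0.06 without cKO 2 and 0.28 without control 3.

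The other granule lineage transcription factors, 22 in all, had a median of 0.23 (0.37 without control 3), with 6 higher at an unadjusted p under 0.05 and 0 lower, and DESeq2 called 2 higher. *Zic1*, *Zic2* and *Neurod1*, the most abundant, had log2 fold changes of 0.26, -0.03 and -0.17 with overlapping groups, and *Nhlh1*, a factor of newborn granule cells, had 1.10. Newborn granule cell genes (18 tested) had a median of 0.14 (0.32 without control 3), with 7 higher at an unadjusted p under 0.05, and DESeq2 called 4 higher. The 7 included *Igfbpl1* (1.47), *Nhlh1*, which is in both lists, and *Dcx* (0.85), a microtubule protein of migrating neurons, while *Stmn2* (-0.03), *Tubb3* (-0.05) and *Stmn3* (-0.26) had overlapping groups. Mature granule neuron genes lay the other way: 20 of 20 had a lower value, 9 at an unadjusted p under 0.05, with a median of -0.53, and DESeq2 called 7 lower. *Snap25*, a synaptic vesicle fusion protein, was at 1084, 1645 and 1227 CPM in cKO libraries and 2028, 2306 and 2588 CPM in controls, with no overlap. *Fat2*, a granule cell cadherin, was at 959.4, 1458 and 663.3 against 2003, 1665 and 1208 CPM and overlapped. The adjusted p of *Snap25* and *Fat2* was 0.135 and 0.379 by edgeR.

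Genes tied to single members gave medians between -0.14 and 0.48. Partners of RCOR and INSM1 corepressors had a median of 0.15 over 12 tested genes, with 0 at an unadjusted p under 0.05 and 0 called by DESeq2; *Kdm1a* (LSD1) was at 157.8, 141.3 and 135.6 CPM against 127.4, 130.1 and 118.3 CPM. The MYC network had a median of 0.06 over 13 genes (4 higher and 2 lower at an unadjusted p under 0.05, 3 called by DESeq2), with *Myc* at 0.53, *Mycl* at 0.58 and *Max*, the shared partner, at -0.14. Its median was 0.03, -0.06 and 0.15 without cKO 1, 2 and 3, and 0.08, 0.08 and 0.12 without control 1, 2 and 3. WNT pathway genes, the setting of *Sfrp1*, had a median of 0.24 over 27 genes (5 higher and 1 lower at an unadjusted p under 0.05, DESeq2 1 in each direction), and *Ctnnb1* (-0.13), *Apc* (0.31) and *Gsk3b* (0.06) overlapped. Glucocorticoid genes, the setting of *Hsd11b2*, had a median of -0.14 over 14 genes, with 1 lower at an unadjusted p under 0.05 and 1 called lower by DESeq2, and the receptor gene *Nr3c1* was at -0.10. Paralogs of the members had a median of 0.48 over 19 genes, with 10 higher and 1 lower at an unadjusted p under 0.05 and 4 called higher by DESeq2, and *Hsd11b1* was at -0.09. Cell cycle exit genes had a median of -0.001 over 10 (-0.05 without control 2 and 0.08 without control 3), with 0 at an unadjusted p under 0.05 and 0 by DESeq2.

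**Figure D3:**
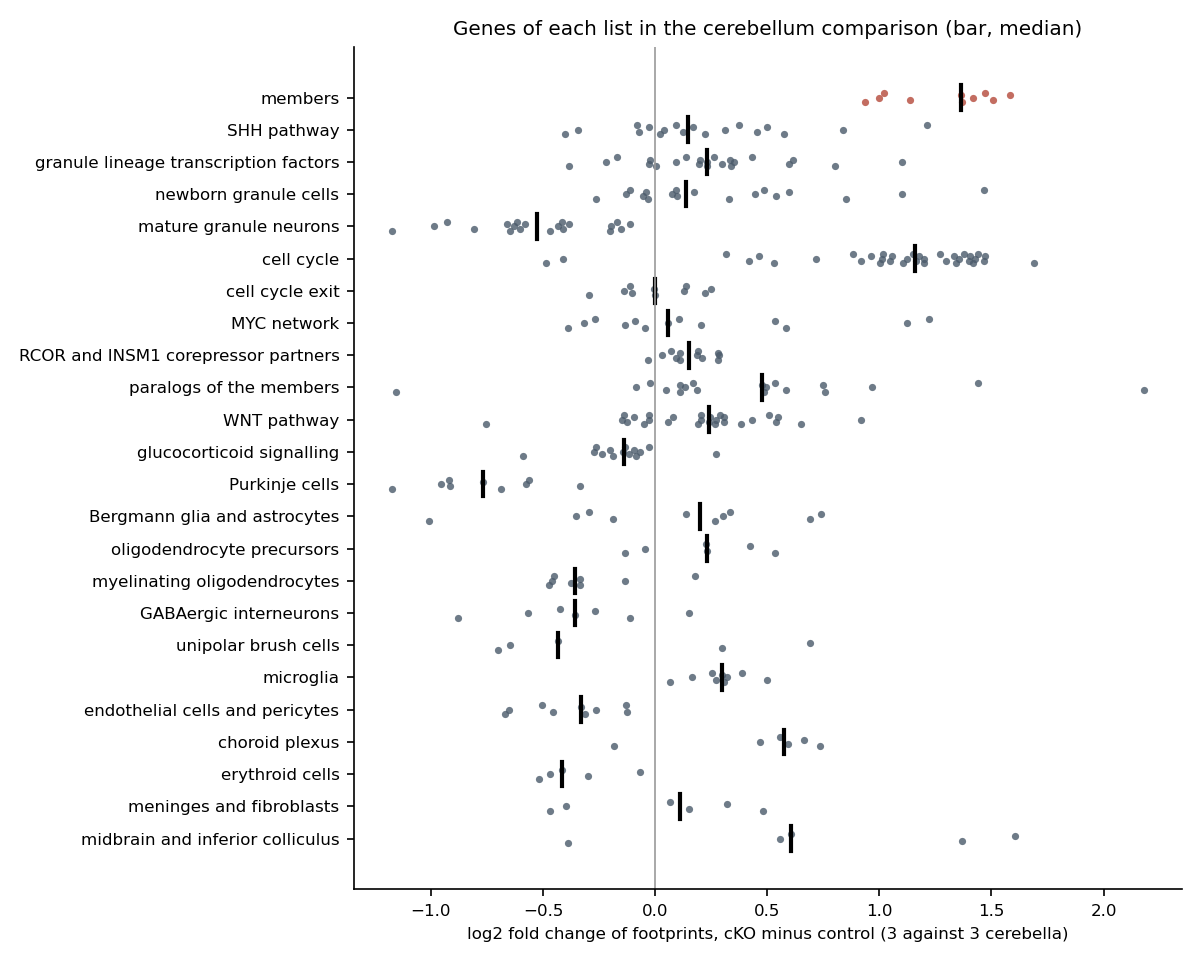
Log2 fold change (cKO over control, cerebellum footprints) of every tested gene of the members and the lists, a point per gene and a bar at each list's median. The members lie between 0.93 and 1.58, cell cycle genes at a median of 1.16, mature granule neuron genes at -0.53 and Purkinje cell genes at -0.77.

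Markers of other cerebellar cells are given because whole tissue was sampled, and edgeR called 0 genes in each of these 12 lists with all 6 libraries. Purkinje cell genes, whose cells were outside the Cre lineage, were lower in 9 of 9 cases, all at an unadjusted p under 0.05, with a median of -0.77 and a summed level of 7040 to 9470 CPM in cKO and 9843 to 17350 CPM in control libraries. DESeq2 called 4 of them lower, and edgeR 6 without control 3, where it also called 3 endothelial, 2 GABAergic, 1 unipolar brush cell and 1 myelinating oligodendrocyte gene lower, 3 glial genes higher and 1 lower, and 1 microglial gene higher. Over all 14597 genes of that fit, 315 were called lower and 245 higher. Endothelial and pericyte genes were lower in 9 of 9 (median -0.33; 3 at an unadjusted p under 0.05, DESeq2 1), GABAergic interneuron genes in 6 of 7 (-0.36; 2, DESeq2 0), myelinating oligodendrocyte genes in 7 of 8 (-0.36; 4, DESeq2 1) and unipolar brush cell genes in 3 of 5 (-0.43; 2, DESeq2 0). Microglial genes were higher in 9 of 9 (median 0.30; 2 at an unadjusted p under 0.05, DESeq2 0). Bergmann glia and astrocyte genes had a median of 0.20 over 10 (3 higher and 1 lower at an unadjusted p under 0.05, DESeq2 1 in each direction), with *Aldoc* at -1.01 and *Fabp7* at 0.69, while their summed level was lower in cKO libraries, at 7862 to 8943 CPM against 9497 to 10350 CPM. Oligodendrocyte precursor genes had a median of 0.23 over 6. Choroid plexus genes were higher in 5 of 6 (median 0.58), with summed levels of 3348 to 5389 CPM in cKO and 1010 to 4466 CPM in control libraries, meningeal genes had a median of 0.11, midbrain genes 0.60 and erythroid genes -0.42, and *Col1a1* ranged from 336.2 to 2271 CPM among the controls alone. At an unadjusted p under 0.05, 2 oligodendrocyte precursor, 1 choroid plexus, 2 meningeal and 2 midbrain genes were higher, 1 midbrain gene was lower and 0 erythroid genes differed, and DESeq2 called 0 in each of these lists. Several of these medians moved with 1 library. The meningeal median was -0.10 without control 3, -0.04 without cKO 2, 0.0035 without control 2, 0.17 without cKO 1 or cKO 3 and 0.48 without control 1, and the choroid plexus median was 0.29 without control 2 and 1.30 without control 1. The oligodendrocyte precursor and microglial medians were 0.07 and 0.19 without cKO 3, the midbrain median 0.96 without cKO 2, and the erythroid median -0.20 without control 2 and -0.63 without control 3. With all 6 libraries the midbrain median, 0.60 over 5 genes, was 0.93 in DESeq2 and 0.99 with no filter on low counts, each over 6 genes. The Bergmann glia median was 0.10 without cKO 1 and 0.12 without control 2, the unipolar brush cell median -0.27 without cKO 1 and -0.25 without control 3, and the GABAergic median -0.23 without control 1. No tested marker of these lists was at 0 in all cerebellum libraries, and the part of cell composition or dissection in the members' difference was not tested.

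In embryos, *Hbs1l* was at 2.98, 2.77 and 9.07 CPM in Hbs1l-/- pools and 60.1, 52.5 and 50.7 CPM in wild-type pools, lower in every Hbs1l-/- pool. Of the 7 members tested there, 0 were called by edgeR (1.87% of 11416 genes were called) and 0 by DESeq2 (415 of 12825 genes). In edgeR 1 member had an unadjusted p under 0.05, as did 2121 of all genes tested. The median of the members was -0.25 against 0.01 over all genes, and it was -0.51 without Hbs1l-/- 1 and -0.06 without Hbs1l-/- 3. *Rcor2*, the corepressor, was at 105.7, 71.5 and 79.5 CPM in Hbs1l-/- pools and 113.4, 140.9 and 107.3 CPM in wild-type pools, and it was the only member whose groups did not overlap. Its log2 fold change of -0.49 ± 0.18 (SE) had an adjusted p of 0.177 (edgeR). *Sox11* was at 150.5, 92.9 and 79.5 CPM against 123.3, 150.6 and 149.8 CPM (-0.38 ± 0.21, adjusted p = 0.342), with replicate 1 among the wild-type values and the other two below them.

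Replicate 1 of the Hbs1l-/- embryos was the highest of its group for *Sfrp1* (127.2, 85.3 and 52.3 CPM against 110.6, 105.2 and 102.0), *Hsd11b2* (124.8, 93.1 and 67.9 against 116.1, 103.4 and 126.8), *Mex3a* (77.4, 57.1 and 50.8 against 59.3, 71.5 and 71.5) and *Mycn* (257.6, 182.5 and 199.5 against 226.8, 249.2 and 214.6). It was the lowest for *Pbk* (57.8, 81.0 and 63.5 against 60.4, 58.8 and 63.4). Each of these members overlapped between the groups, and their log2 fold changes lay between -0.26 and 0.15. That library differed from the other Hbs1l-/- pools by 18.6 to 22.2 squared counting errors per gene, where these differed by 10.9 and wild-type pools by 2.8 to 4.3. This measure grows with depth where libraries differ beyond counting error. Hbs1l-/- 1 was also the deepest of its group, at 7298812 counts against 4352873 and 2827743, so depth enters that gap. Without Hbs1l-/- 1 edgeR called 2309 genes (20.3% of those tested, 10.6% lower), among them 4 of the 7 members, all lower: *Sox11* (-0.71, adjusted p = 0.00534), *Rcor2* (-0.68, 0.00857), *Sfrp1* (-0.61, 0.0318) and *Hsd11b2* (-0.51, 0.0425). *Ddx3y*, a Y-linked gene, was at 71.4, 70.5 and 53.3 CPM in Hbs1l-/- and 5.14, 9.13 and 32.9 CPM in wild-type pools, so the sex of the pooled embryos moved with genotype, and its part in these values was not tested.

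In MEFs the target check held for *Hbs1l* (log2 fold change of -4.15 in Hbs1l-/- footprints and -2.78 in RNA) and *Pelo* (-3.78 and -6.15 in Pelo-/-). It went against the label for *Upf2*: the libraries labelled Upf2-/- had more *Upf2* footprints (114.6, 113.3 and 118.8 against 54.9, 49.2 and 58.3 CPM) and more *Upf2* RNA (63.1, 42.7 and 30.1 against 15.9, 21.5 and 16.8 CPM) than their controls. Directions in those libraries are therefore given for the libraries labelled Upf2-/- and not for loss of UPF2. The study reported that transcripts annotated as targets of nonsense-mediated decay accumulated in its Upf2-/- cells. Why the *Upf2* counts were higher was not tested. The footprint controls of the 3 pools with the same number differed by 1.10 to 1.19 squared counting errors per gene, close to the 1 that counting error alone gives, against 4.06 to 12.6 for different numbers, so the 3 footprint comparisons share controls, as do the 3 RNA comparisons. Each comparison's own values are given side by side, and the comparisons are not independent. *Ddx3y* was above 97 CPM in all 3 footprint libraries labelled Upf2-/-, in 2 of 3 Pelo-/- libraries and in control 3, and at most 1.14 CPM in the other footprint libraries. In RNA it was at 11.3 and 0.043 CPM in Pelo-/- 1 and 2, and at 25.9, 22.5 and 0.081 CPM in the libraries labelled Upf2-/-. Footprint and RNA libraries of the same number thus did not all match in this gene and need not come from the same embryos. The part of sex in these values was not tested.

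*Sox11* was lower in all 3 footprint comparisons. It was at 42.4, 42.4 and 42.2 CPM in Hbs1l-/- and 72.6, 88.9 and 62.6 CPM in control footprints (-0.82 ± 0.11, adjusted p = 9.02e-05, edgeR), with every mutant below every control. In Pelo-/- it was at 52.0, 64.5 and 40.3 against 74.0, 92.4 and 63.6 CPM (-0.56 ± 0.17, adjusted p = 0.0223), and the groups overlapped. In the libraries labelled Upf2-/- it was at 29.8, 39.8 and 45.8 against 81.7, 97.9 and 66.7 CPM (-1.08 ± 0.15, adjusted p = 0.000209). *Sox11* RNA fell in Hbs1l-/- (29.0, 30.4 and 30.9 against 51.2, 53.0 and 37.5 CPM, -0.64, adjusted p = 0.0109) and in the libraries labelled Upf2-/- (-0.57, adjusted p = 0.0342), and was at -0.04 ± 0.16 in Pelo-/-, where leaving out Pelo-/- 1, control 1 or control 2 turned the sign (0.04, 0.02 and 0.06). The Pelo-/- footprint call was lost without Pelo-/- 1 or 3 or control 1 or 2 (adjusted p = 0.0624, 0.0516, 0.0520 and 0.0941), and the RNA call in the libraries labelled Upf2-/- without mutant 2 or 3 or control 1 or 2 (0.104, 0.101, 0.0917 and 0.127).

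*Pbk* rose in Hbs1l-/- footprints, at 35.2, 33.5 and 31.7 CPM against 21.6, 19.97 and 24.2 CPM (0.61 ± 0.10, adjusted p = 0.000506, edgeR), and in Pelo-/- footprints, at 30.1, 31.9 and 36.4 against 23.2, 18.3 and 27.8 CPM (0.51 ± 0.14, adjusted p = 0.0148). Its RNA rose in Hbs1l-/- (15.2, 17.5 and 16.8 against 11.3, 11.6 and 12.7 CPM, 0.47, adjusted p = 0.0175) and fell in Pelo-/- (8.28 and 8.72 against 11.1, 11.8 and 12.7 CPM, -0.48, adjusted p = 0.0191). Footprints and RNA thus had opposite signs in Pelo-/-, and the difference between the assays was not tested. Pelo-/- libraries of the same number also differed in *Ddx3y* between the assays. In the libraries labelled Upf2-/- the footprint value was 0.33 (adjusted p = 0.124) and the RNA value -0.63 (adjusted p = 0.0363). With 1 library left out that footprint value ran from 0.19 to 0.54. It was called without control 3 (0.54, adjusted p = 0.00488), and its adjusted p was 0.342 without control 2. The 3 RNA calls of *Pbk* were lost when any of several libraries was left out, while the values kept their sign (0.42 to 0.53 in Hbs1l-/-, -0.52 to -0.43 in Pelo-/- and -0.87 to -0.47 in the libraries labelled Upf2-/-). In Hbs1l-/- the adjusted p was 0.0531 to 0.0685 without mutant 2 or 3 or control 1 or 2, in Pelo-/- 0.0558 to 0.134 without mutant 1 or 2 or control 3, and in the libraries labelled Upf2-/- 0.0594 to 0.113 without mutant 1 or 3 or any control.

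*Rcor2* had low levels in MEFs and its RNA rose in each RNA comparison. *Rcor2* RNA was at 7.72, 6.56 and 6.69 CPM in Hbs1l-/- against 2.68, 2.41 and 2.66 CPM in controls (1.43 ± 0.15, adjusted p = 0.000775, edgeR), at 5.72 and 5.08 against 2.63, 2.45 and 2.65 CPM in Pelo-/- (1.06 ± 0.15, adjusted p = 0.00311) and at 5.26, 5.19 and 5.71 against 2.72, 2.45 and 2.69 CPM in the libraries labelled Upf2-/- (1.04 ± 0.16, adjusted p = 0.0015). No mutant library overlapped a control in any of these. *Rcor2* footprints rose in Pelo-/- (5.08, 7.30 and 5.42 against 3.87, 3.09 and 4.19 CPM, 0.67, adjusted p = 0.0241), a call lost without Pelo-/- 2 or control 1 or 2 (0.0715, 0.0636 and 0.0902), and stood at 0.21 in Hbs1l-/- (0.11 to 0.38 with 1 library left out) and 0.61 (adjusted p = 0.0742) in the libraries labelled Upf2-/-, where it was called without control 3 (0.77, adjusted p = 0.0426) and stood at 0.37 without control 2.

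*Mycn* was at 3.39 to 6.56 CPM in control MEF footprints and fell in Pelo-/- (2.27, 2.31 and 3.38 against 4.49, 6.02 and 4.19 CPM, -0.86 ± 0.24, adjusted p = 0.0151) and in the libraries labelled Upf2-/- (3.05, 2.69 and 3.03 against 5.59, 5.77 and 4.53 CPM, -0.87 ± 0.21, adjusted p = 0.00572, both edgeR). The Pelo-/- call was lost without Pelo-/- 1 or control 2 (0.0509 and 0.0731). In Hbs1l-/- footprints *Mycn* was at 2.17, 5.36 and 4.00 against 5.38, 6.56 and 3.39 CPM (-0.52, adjusted p = 0.228), with overlap, and the value was -0.17 without mutant 1 and -0.28 without control 2. Its RNA was low and fell in Hbs1l-/- (0.956, 1.32 and 1.03 against 2.11, 2.14 and 1.598 CPM, -0.78, adjusted p = 0.0377), a call lost without mutant 1 or 3 or control 1 or 2 (0.0878, 0.0916, 0.0966 and 0.117). In Pelo-/- RNA the value was 0.11 and turned to -0.04 without control 3.

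*Sfrp1* fell in Hbs1l-/- footprints, at 67.7, 61.2 and 55.8 against 84.9, 92.1 and 77.3 CPM (-0.46 ± 0.09, adjusted p = 0.00164, edgeR). It stood at -0.13 in Pelo-/- footprints and at -0.06 in the libraries labelled Upf2-/-. With 1 library left out the Pelo-/- value ran from -0.30 to -0.017. It was called without Pelo-/- 3 (-0.30, adjusted p = 0.0393, edgeR) and had an adjusted p of 0.931 without Pelo-/- 1. *Sfrp1* RNA fell in the libraries labelled Upf2-/- (27.0, 32.3 and 27.8 against 38.2, 42.7 and 40.5 CPM, -0.48, adjusted p = 0.0198), a call lost without mutant 1 or control 2 or 3 (0.0607, 0.0764 and 0.0701). It stood at -0.20 in Hbs1l-/- RNA (-0.27 to -0.10 with 1 library left out) and -0.33 in Pelo-/- RNA (-0.47 to -0.20). The Pelo-/- adjusted p was 0.0673 (0.0416 without control 1, 0.0271 with no filter on low counts and 0.416 without Pelo-/- 1).

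*Mex3a* RNA rose in Pelo-/-, at 46.6 and 51.8 against 31.7, 34.0 and 31.3 CPM (0.61 ± 0.09, adjusted p = 0.00386, edgeR), and stood at -0.12 and -0.22 in the other RNA comparisons. *Mex3a* footprints fell in the libraries labelled Upf2-/- (18.1, 21.0 and 21.9 against 28.5, 29.4 and 22.4 CPM, -0.39, adjusted p = 0.0261), a call lost without mutant 1 or 2 or control 1 or 2 (0.0901, 0.0613, 0.0966 and 0.0795). They were at -0.13 in Hbs1l-/- (-0.25 to -0.06 with 1 library left out) and -0.09 in Pelo-/- (-0.18 to 0.02). *Hsd11b2* was at 0.34 to 2.44 CPM in MEF footprints. It fell in the libraries labelled Upf2-/- (0.339, 0.358 and 0.689 against 1.84, 1.41 and 0.848 CPM, -1.57 ± 0.47, adjusted p = 0.0192), a call lost without mutant 1 or 2 (0.0603 and 0.103) and in DESeq2 (0.0686). Without control 1 or 2, or under a filter of 1 CPM in 3 libraries, it did not enter the test.

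**Figure D4:**
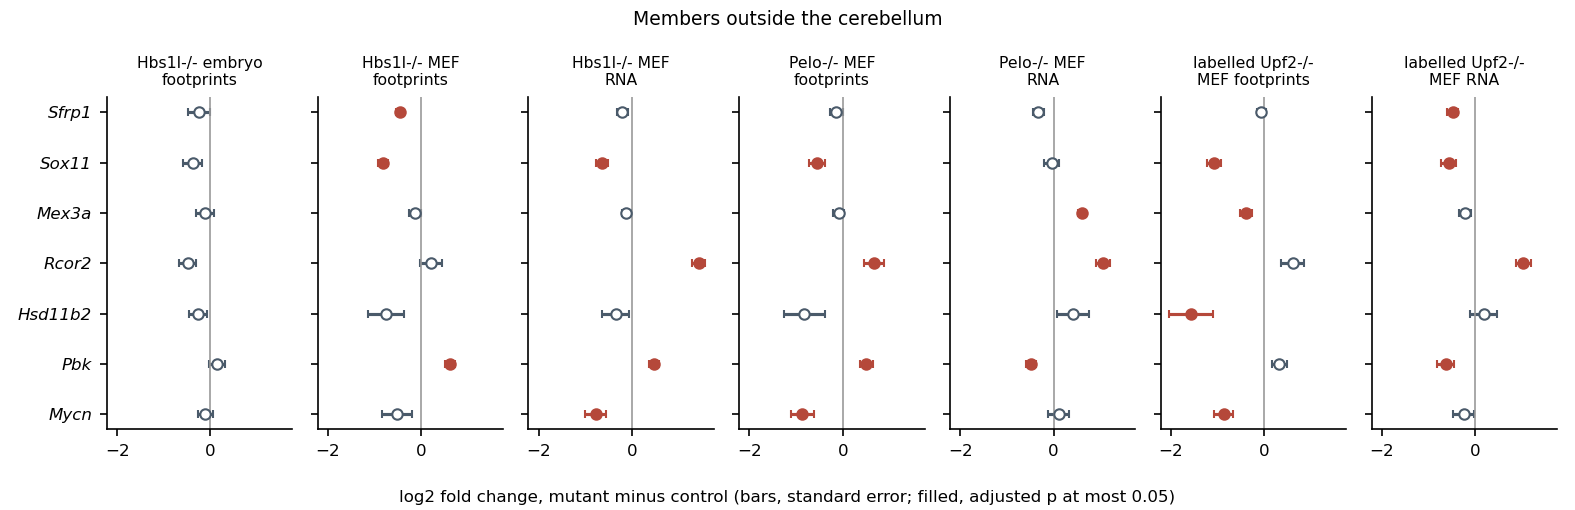
Log2 fold change (mutant over control) with its standard error for the 7 members tested in embryo footprints, MEF footprints and MEF RNA, filled where the adjusted p of edgeR was at or under 0.05. No embryo value is filled, and Sox11 is below 0 in all MEF footprint comparisons, at -0.82, -0.56 and -1.08.

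Counted over the members, 3 of 7 were called in Hbs1l-/- footprints (34.1% of all genes), 4 of 7 in Pelo-/- footprints (44.1%), and 4 of 7 in the libraries labelled Upf2-/- (43.4%). In RNA the counts were 4 of 7 in Hbs1l-/- (23.1%), 3 of 7 in Pelo-/- (32.1%) and 4 of 7 in the libraries labelled Upf2-/- (20.1%). No test of a share was made. The medians were -0.46, -0.13 and -0.39 in footprints and -0.20, 0.11 and -0.25 in RNA, against -0.01, 0.004 and 0.001 and -0.01, -0.01 and -0.02 over all genes. These medians over 7 genes moved with single libraries: in Hbs1l-/- footprints to -0.17 without mutant 1 and -0.28 without control 2, in Pelo-/- footprints to -0.04, -0.30, -0.08 and -0.22 without mutant 1, mutant 3, control 2 and control 3, and in the footprints labelled Upf2-/- to -0.16 and -0.18 without control 1 and control 2, each over 6 genes, with -0.23 in DESeq2. In RNA the median was -0.11 in Hbs1l-/- without mutant 3, between -0.04 (without control 3) and 0.20 (without control 2) in Pelo-/-, and -0.39 without control 3 and -0.02 in DESeq2 in the libraries labelled Upf2-/-. With no filter on low counts, over all 10 members, it was 0.23 in Pelo-/- and 0.02 in the libraries labelled Upf2-/-. Leaving out a library moved the Pelo-/- footprint count between 1 and 4, that of the libraries labelled Upf2-/- between 2 and 6, and the RNA counts between 1 and 4, and left the Hbs1l-/- footprint count at 3.

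The effect of *Hbs1l* loss in embryos was compared with that in MEFs by the interaction term of edgeR, which called 0 of the 7 members and 7.46% of all genes tested. *Rcor2* (-0.69 ± 0.28, adjusted p = 0.142) and *Pbk* (-0.46 ± 0.20, adjusted p = 0.178) had an unadjusted p under 0.05, as did 3165 of all 13062 genes. DESeq2 called 0 members and 1458 of 12240 genes. Without embryo Hbs1l-/- 1, *Rcor2* was called (adjusted p = 0.0223), beside 2757 of 13195 genes. Source, strain and batch cannot be told apart in this comparison, and the part of the Y-linked difference between the embryo pools was not tested. No difference between the Pelo-/- and Hbs1l-/- effects passed this test for a member (0 called against 5.55% of all genes), the nearest being *Sfrp1* (0.33 ± 0.18, adjusted p = 0.336). At an unadjusted p under 0.05 there were 0 members and 2415 of 12526 genes, and DESeq2 called 0 members and 832 of 13337 genes. The edgeR fit counts the shared controls of both pools. With them counted once edgeR called 0 members and 17.8% of all genes, and *Sfrp1* had an unadjusted p under 0.05, as did 4052 of 12778 genes. Between the libraries labelled Upf2-/- and Hbs1l-/- edgeR called 0 members and 4.93% of all genes, and DESeq2 0 of 6 members and 717 of 11760 genes. *Sfrp1* (0.40 ± 0.14, adjusted p = 0.124) had an unadjusted p under 0.05 in edgeR, as did 2445 of 12334 genes. With the shared controls counted once edgeR called *Sfrp1* (0.38, adjusted p = 0.0169), 1 of 7 members beside 16.8% of all genes. No term of this kind compares the cerebellum with the other samples, since the members were chosen there.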

How the data were processed

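Per the labels and the study's methods, the authors clipped footprint reads, removed rRNA and tRNA reads with Bowtie2 2.2.3, aligned the rest with HISAT2 2.1.0 to mm10 and counted them per gene with featureCounts; the deposited footprint files hold these raw counts. For RNA, the authors ran kallisto 0.42.4, and the deposited files hold estimated counts and TPM per transcript. Here transcripts were added up to genes and the sums rounded to whole estimated counts, the deposited TPM were only looked at as levels, and CPM were computed from counts with TMM factors. Genes were filtered with filterByExpr, histone symbols (6 prefixes) were left out as in the study, and a separate edgeR 4.0.16 fit (quasi-likelihood, R 4.3.3) was made for every comparison from the libraries it names, with Benjamini-Hochberg adjustment over all genes tested and a threshold of 0.05. Fold changes are mutant over control and the errors beside them are standard errors. For member correlations, log2 CPM used a prior count of 2. DESeq2 1.42.0, other scalings, other filters and each library left out were tried as alternatives. Depth was 5782990 to 25607974 counts in MEF footprints and 22713643 to 86425762 in MEF RNA. A bound for 0 counts is 3 counts of the total and covers counting error only. Replicates were separate mice, embryo pools or, for MEFs, cells of separate embryos.

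The members, the gene lists and the genes named were chosen with earlier results of these data known. All members were named; of each list, the genes past the threshold and the 3 most abundant were named by rule, as were the 10 genes nearest the members' mean, and other genes of the lists were named after their values were seen; some items that the rule names are not reported here. The fit was tested on data simulated from the cerebellum and the embryo footprints. Proteins, and the promoters of *Sfrp1*, *Insm1*, *Hsd11b2* and *Pbk*, were not used here. Gene positions are from Gencode on GRCm38.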

Additional observations from a re-analysis of the deposited data

How the results depend on the processing

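The cerebellum median of the members was 1.36 to 1.47 under other tools, scalings, filters and the replicate block, and 1.18 to 1.44 with a library left out, lowest without cKO 1. Leaving out 1 library gave 0 to 4 called members in embryo footprints, 3 in Hbs1l-/- MEF footprints, 1 to 4 in Pelo-/- footprints, 2 to 6 in footprints labelled Upf2-/-, 2 to 4 in Hbs1l-/- and Pelo-/- RNA and 1 to 3 in RNA labelled Upf2-/-, where library totals as scaling gave 1. The comparison of embryos with MEFs gave 0 to 1. The comparison of libraries labelled Upf2-/- with Hbs1l-/- gave 1 called member with the replicate block (*Sfrp1*, adjusted p = 0.0219) and 1 with shared controls counted once, an alternative chosen after seeing the data. Small values changed sign with a library left out: in embryos *Mex3a* (-0.32 to 0.0014), *Sfrp1* (-0.61 to 0.012) and *Pbk* (-0.0080 to 0.26), in Pelo-/- footprints *Mex3a* (-0.18 to 0.023), in footprints labelled Upf2-/- *Sfrp1* (-0.16 to 0.017), and in Pelo-/- RNA *Hsd11b2* (-0.051 to 0.75), *Mycn* (-0.041 to 0.20, and -0.036 with the replicate block) and *Sox11* (-0.19 to 0.063). The cause was not tested. Deviations of same-numbered cerebella correlated at -0.237 to 0.219, the highest for replicate 1, and those of different numbers at -0.302 to 0.194. With 3 libraries per genotype these values cannot decide whether the numbers pair the libraries. The replicate block left 0 members called there. Calls also lost were *Mycn* in Hbs1l-/- RNA (0.0513) and *Pbk* in Pelo-/- RNA (0.111) with the replicate block, and *Pbk* (0.0930), *Sfrp1* (0.0642) and *Sox11* (0.0727) in RNA labelled Upf2-/- with library totals. Over all genes in the cerebellum, edgeR called 9, DESeq2 476, the fit with histone genes 67 and the replicate block 0, with 560 without control 3, 88 without cKO 2 and 0 without any other single library. Library totals moved the cerebellum median of all genes by 0.102, and that of Pelo-/- RNA moved by -0.102 in DESeq2 and -0.144 with no filter. *Atoh1*, *Barhl1* and *Insm1* were below the low-count filter of the edgeR fits in embryos and MEFs. Where an alternative fitted them, with no filter or in DESeq2, their adjusted p was 0.27 or more. *Insm1* lay above every control in each Hbs1l-/- and Pelo-/- footprint library, at 1 to 2 and 3 to 5 counts against 0 to 1 and 0 to 2. With so few counts no difference was read.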
